A study of Mus musculus with 24 samples.

Results

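The genes described here are 50 genes that act in G2 and mitosis, the stages in which a cell prepares to divide and then divides. They were chosen by name for that role, though with earlier results of these data known, from the 26411 genes that the count tables list. All 50 were found by symbol, and all 50 passed the filter on low counts in each fit.

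RNA-seq had been done on neural stem and progenitor cells (NSPCs), dividing cells that can form neurons and glia, which were cultured from the dorsal telencephalon of single E12.5 mouse embryos on a C57BL/6 background. The 24 libraries formed 6 groups of 4, with the 3 genotypes *Kat6a*+/+ (wildtype), *Kat6a*+/– (heterozygous) and *Kat6a*–/– (null) in each of 2 conditions. *Kat6a* encodes a histone acetyltransferase, and its constitutive null allele lacks several exons, which brings an early stop codon. Proliferating NSPCs had spent 3 days in medium with the growth factors FGF2 and EGF, and differentiating NSPCs had spent 3 days on a coated surface in medium with serum. RNA was extracted with a different kit in each condition, so kit and condition cannot be told apart. Counts per library summed to between 7826660 and 40838203 in proliferating and to between 14836869 and 23692125 in differentiating NSPCs, and 6 embryos gave a library in both conditions. Markers of neural stem cells (*Sox2*, *Nes*, *Pax6*, *Vim*, *Hes5* and *Fabp7*) summed to 5090 CPM (counts relative to the scaled library total) or more in each proliferating library, and the microglial markers *Aif1*, *Cx3cr1*, *Csf1r* and *Ptprc* summed to no more than 0.783 CPM in any library. Most of the stem cell sum was *Vim* and *Nes*, with group means of 2690 to 3890 and 1660 to 2210 CPM. Oligodendrocyte lineage markers (*Pdgfra*, *Olig1*, *Olig2*, *Sox10*, *Cspg4*) summed to 2220 to 2990 CPM in proliferating libraries. The *Kat6a* row counts the whole gene, so it does not check the deletion, and its level was 334 to 389 CPM in null and 373 to 409 CPM in wildtype proliferating libraries. In differentiating libraries *Kat6a* measured 160.0, 253, 164 and 188 CPM in null and 292, 239, 256 and 282 CPM in wildtype NSPCs, a log2 fold-change of −0.69 (limma, FDR = 3.33e-05). A check of *Xist* and Y-linked reads found that 1 of the 6 embryos named in both conditions, labelled wildtype in each, did not have the same sex in its 2 libraries.

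A cell enters mitosis when the kinase CDK1, bound to cyclin B, is switched on, and leaves it when the anaphase-promoting complex has the cyclin destroyed. Most genes of this group are transcribed only late in the cycle, so their mRNA is abundant in cultures with many cycling cells and scarce in cells that have left the cycle. In the developing cortex they are therefore a common readout of how many progenitors are dividing.

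The 50 genes fall into 6 roles. Entry into mitosis is represented by 12 genes, which are *Cdk1*, the cyclins *Ccna2*, *Ccnb1* and *Ccnb2*, the CDK1-activating phosphatase *Cdc25c*, the transcription factor *Foxm1*, the kinases *Plk1*, *Aurka*, *Melk*, *Pbk* and *Nek2*, and *Gtse1*, a microtubule-binding protein that restrains p53. Chromosome structure and the passenger complex are represented by 8 genes, *Mki67*, *Top2a*, *Ncapd2*, *Aurkb*, *Birc5*, *Cdca8*, *Cdca2* and *Cdca3*. The last of these, a trigger of mitotic entry, is counted with them although its role differs. The kinetochore and the spindle checkpoint contribute 10, *Bub1*, *Bub1b*, *Ttk*, *Cenpa*, *Cenpe*, *Cenpf*, *Ndc80*, *Nuf2*, *Knl1* and *Sgo1*. The spindle contributes 9, *Kif11*, *Kif2c*, *Tpx2*, *Nusap1*, *Hmmr*, *Dlgap5*, *Ckap2*, *Spag5* and *Psrc1*. The central spindle and cytokinesis contribute 8, *Anln*, *Ect2*, *Kif20a*, *Kif20b*, *Kif23*, *Kif4*, *Prc1* and *Racgap1*. Anaphase and mitotic exit contribute 3, *Cdc20* and *Ube2c*, which work with the anaphase-promoting complex, and *Espl1*, the protease separase.

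Promoters of late cell cycle genes are known to carry a cell cycle genes homology region (CHR), a short element near the transcription start that is bound by the DREAM and MuvB complexes, and CCAAT boxes upstream of it that bind NF-Y. RefSeq promoter sequences, which run from 250 bases before to 50 bases after an annotated start, were matched by gene identifier for 41 of the 50 genes, and 4 of these had 2 start sites. *Aurkb*, *Ccna2*, *Cdc25c*, *Cdca2*, *Dlgap5*, *Foxm1*, *Kif20a*, *Pbk* and *Tpx2* were not matched. The letters TTTGAA or TTCGAA (for the CHR) and CCAAT were searched on both strands, and the motifs do not overlap in sequence. A CHR match was found in at least 1 window of 33 of the 41 genes (80.5%), against 19.5% of the 16852 protein-coding genes with such windows. CCAAT was found in 32 (78.0%, against 42.6%), and both motifs in 28 (68.3%, against 8.18%). A CHR match within 50 bases of the start was found in 29 (70.7%, against 4.95%). Searched on the gene's own strand alone, CHR was found in 65.9% against 11.8%.

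Promoters of 6 genes are shown because their mRNAs illustrate both patterns described further on. Those of *Cdk1*, *Ccnb2*, *Plk1* and *Cdc20* are typical of the genes that were lower in null NSPCs, and those of *Psrc1* and *Gtse1* belong to the genes with higher values there. Each is given 5′ to 3′ on the strand of its gene, from RefSeq's GRCm38.p6 table, and each matched mm39 exactly at 1 place. These places are chr10:69188693-69188992 (minus strand) for *Cdk1*, chr9:70328787-70329086 (minus) for *Ccnb2*, chr7:121758408-121758707 (plus) for *Plk1*, chr4:118294491-118294790 (minus) for *Cdc20*, chr3:108290870-108291169 (plus) for *Psrc1* and chr15:85743658-85743957 (plus) for *Gtse1*. Capitals mark the matches to CHR and to CCAAT, the latter read as ATTGG on the other strand.
Cdk1: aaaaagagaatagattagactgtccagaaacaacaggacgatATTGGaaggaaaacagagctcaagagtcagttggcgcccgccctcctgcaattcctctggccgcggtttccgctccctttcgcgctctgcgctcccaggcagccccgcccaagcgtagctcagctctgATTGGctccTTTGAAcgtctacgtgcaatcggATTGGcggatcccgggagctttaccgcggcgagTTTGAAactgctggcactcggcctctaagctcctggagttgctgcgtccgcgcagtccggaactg
Ccnb2: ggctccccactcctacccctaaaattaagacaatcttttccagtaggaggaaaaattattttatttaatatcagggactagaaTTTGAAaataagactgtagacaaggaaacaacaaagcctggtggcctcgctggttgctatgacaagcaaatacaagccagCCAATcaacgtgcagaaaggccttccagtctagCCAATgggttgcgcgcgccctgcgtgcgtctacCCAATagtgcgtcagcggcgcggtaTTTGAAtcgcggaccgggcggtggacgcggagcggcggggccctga
Plk1: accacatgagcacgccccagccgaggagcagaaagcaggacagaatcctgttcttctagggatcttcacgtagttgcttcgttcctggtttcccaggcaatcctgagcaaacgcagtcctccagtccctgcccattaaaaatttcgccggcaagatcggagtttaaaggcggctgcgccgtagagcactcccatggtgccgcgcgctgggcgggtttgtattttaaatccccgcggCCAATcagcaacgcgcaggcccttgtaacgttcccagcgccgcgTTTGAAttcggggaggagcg
Cdc20: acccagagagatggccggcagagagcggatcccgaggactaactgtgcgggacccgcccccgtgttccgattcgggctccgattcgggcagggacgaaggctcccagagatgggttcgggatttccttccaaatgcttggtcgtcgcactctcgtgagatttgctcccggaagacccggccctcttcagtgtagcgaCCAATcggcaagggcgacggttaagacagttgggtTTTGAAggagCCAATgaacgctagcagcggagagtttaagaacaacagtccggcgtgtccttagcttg
Psrc1: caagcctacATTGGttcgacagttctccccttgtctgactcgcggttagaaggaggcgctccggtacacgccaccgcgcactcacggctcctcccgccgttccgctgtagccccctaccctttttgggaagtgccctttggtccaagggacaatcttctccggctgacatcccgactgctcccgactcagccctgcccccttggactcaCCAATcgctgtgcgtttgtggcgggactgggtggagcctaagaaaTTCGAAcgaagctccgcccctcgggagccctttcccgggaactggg
Gtse1: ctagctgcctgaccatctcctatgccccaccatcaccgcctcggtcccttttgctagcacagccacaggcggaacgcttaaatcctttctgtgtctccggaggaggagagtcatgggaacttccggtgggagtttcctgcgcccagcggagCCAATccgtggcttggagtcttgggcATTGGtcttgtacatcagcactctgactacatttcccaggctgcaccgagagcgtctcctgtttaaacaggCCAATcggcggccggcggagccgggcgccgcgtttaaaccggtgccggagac
The *Cdk1*, *Ccnb2*, *Plk1* and *Cdc20* windows each hold a TTTGAA within 50 bases of the start, with CCAAT or ATTGG upstream. *Psrc1* has the variant TTCGAA near its start. *Gtse1* holds CCAAT letters and no match to either form of the CHR in this window. For positions, only the window lowest in coordinate was used where a gene had more than 1 start site. Across the 41 genes, 43 CHR matches in these windows had a median position of 3 bases after the start, and 31 of them lay within 50 bases of it. The 74 CCAAT matches had a median position of 67.5 bases before the start, and 71 lay upstream.

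**Figure D1:**
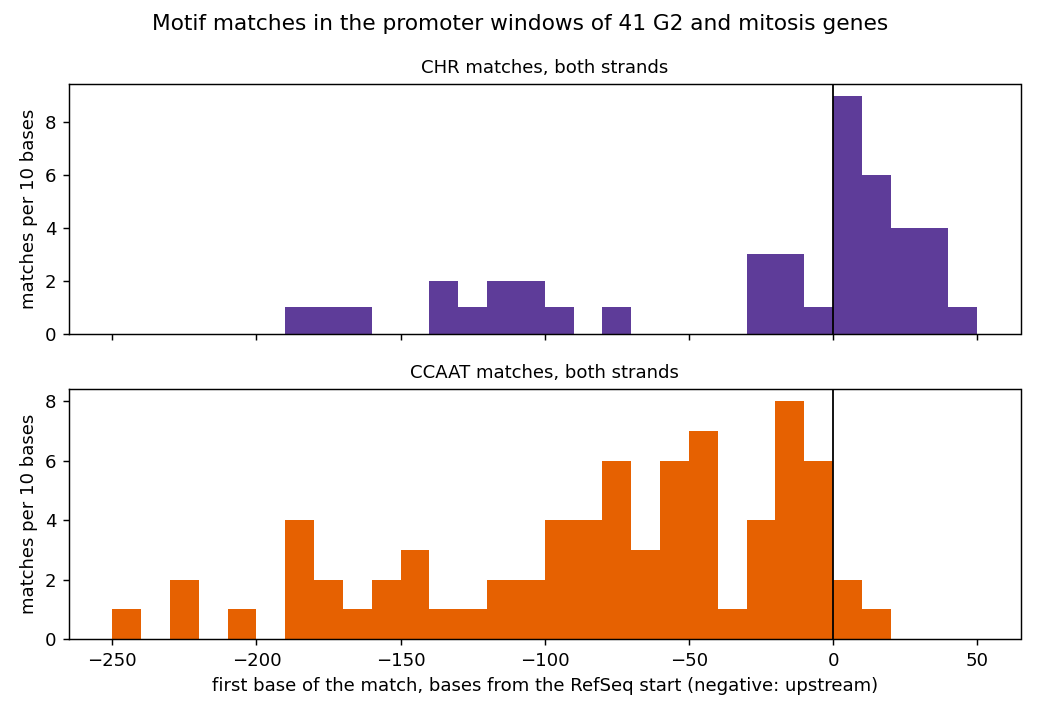
Positions of CHR matches (TTTGAA or TTCGAA) and CCAAT matches, on either strand, in the promoter window lowest in coordinate of each of 41 G2 and mitosis genes. The x axis gives bases from the annotated start. CHR matches gather around the start, with a median of 3 bases after it, and CCAAT matches lie mostly upstream, with a median of 67.5 bases before it.

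In wildtype NSPCs all 50 genes were lower under differentiating than under proliferating conditions. CPM were computed from the counts with library totals scaled by the TMM method, and the 50 genes summed to 9016 ± 438.7 CPM (SD, n = 4) in proliferating and to 2864 ± 621.2 CPM (SD, n = 4) in differentiating wildtype NSPCs, a 3.15-fold difference. In bulk RNA a smaller share of cells in G2 and mitosis cannot be told apart from less of these RNAs per cell. Every gene passed an FDR of 0.05 in a limma-voom fit of all 24 libraries, in which 36.2% of the 13590 genes tested were lower. The median log2 fold-change was −1.72, and the fall ranged from 2.06-fold to 4.51-fold. The spindle gene *Dlgap5* (−2.17 ± 0.21 (SE), FDR = 1.04e-08), the checkpoint kinase gene *Bub1* (−2.13) and *Espl1* (−2.12) fell furthest. *Ect2* (−1.04), which activates RhoA at the cleavage furrow, *Pbk* (−1.06) and *Prc1* (−1.25), a bundler of midzone microtubules, fell least.

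Levels per kilobase of exon, computed as RPKM from the CPM and the lengths in the tables, spanned a wide range within the group. In proliferating wildtype NSPCs they ran from 8.53 RPKM for *Knl1*, a kinetochore scaffold, to 179.9 RPKM for *Ube2c*, an enzyme that passes ubiquitin on for the anaphase-promoting complex, with *Top2a*, the topoisomerase that untangles sister chromatids, next at 168 RPKM. In differentiating null NSPCs the same scale ran from 0.247 RPKM for *Knl1* to 36.6 RPKM for *Psrc1*. *Gtse1* and *Ckap2* followed *Psrc1* there with 19.9 and 11.7 RPKM, whereas in proliferating wildtype NSPCs these 3 genes stood at 60.1, 42.3 and 63.0 RPKM, in the order *Psrc1*, *Gtse1* and *Ckap2*.

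**Figure D2:**
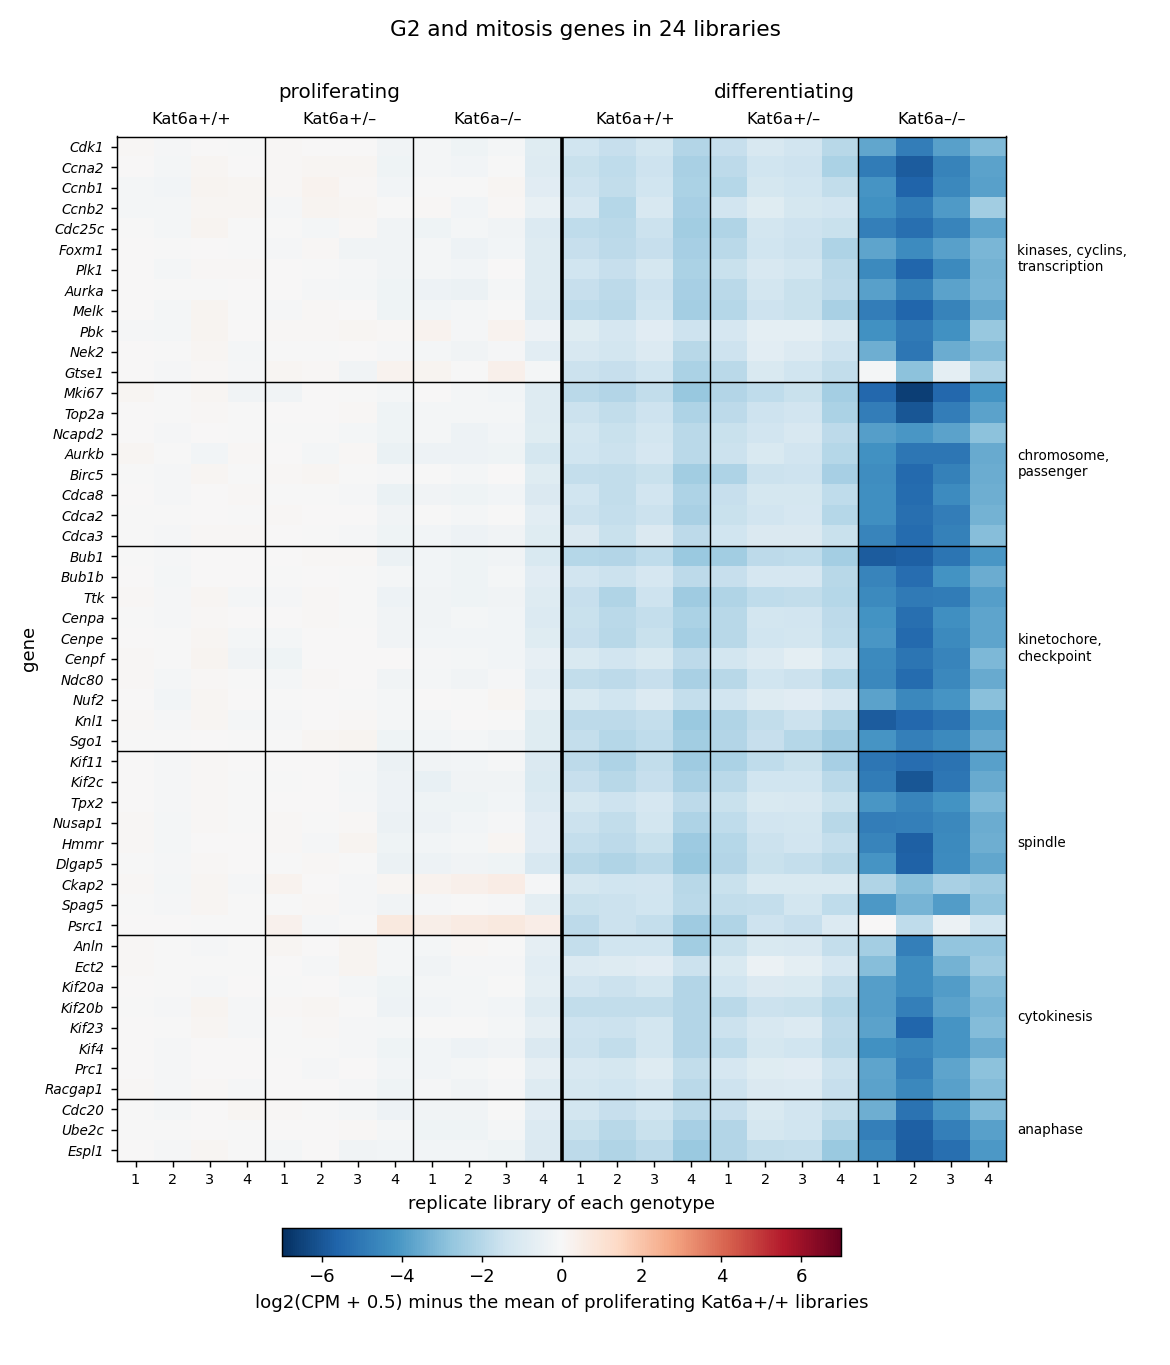
Level of each of the 50 genes (rows, grouped by role) in each of the 24 libraries (columns, replicates 1 to 4 of each genotype and condition), coloured by log2(CPM + 0.5) minus the gene's mean in proliferating wildtype libraries, blue for lower. Differentiating libraries are lower, except for *Psrc1* in null replicate 1, and for 47 of the 50 genes the 4 differentiating null libraries lie below the 4 differentiating wildtype libraries.

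In differentiating NSPCs the genes of G2 and mitosis were far lower in *Kat6a*–/– than in *Kat6a*+/+ cells. Their summed level was 617.7 ± 252.2 CPM (SD, n = 4) in null against 2864 ± 621.2 CPM (SD, n = 4) in wildtype libraries, a 4.64-fold difference. In the limma-trend fit of these 12 libraries, 48 of the 50 genes fell and 2, *Psrc1* and *Gtse1*, rose, while 27.7% of the 13339 genes tested fell and 26.7% rose. The median log2 fold-change of the 50 was −2.83 (7.1-fold), against −0.016 for all genes tested. For 47 genes each null library was below each wildtype library, which held for 14.7% of all genes tested. Falls ranged from 1.89-fold to 11.3-fold, with 46 genes more than 4-fold and 19 genes more than 8-fold lower.

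Values in each library are given for 12 genes that stand for the 6 roles, always in the order of replicates 1 to 4. *Mki67*, which encodes the proliferation marker Ki-67 that coats mitotic chromosomes, measured 246, 216, 269 and 145 CPM in wildtype, 213, 260.0, 300.4 and 175 CPM in heterozygous and 19.7, 8.87, 19.2 and 49.0 CPM in null libraries. The null libraries formed a separate low range, and heterozygous and wildtype libraries overlapped. Its log2 fold-change of null against wildtype was −3.50 ± 0.24 (SE), FDR = 2.49e-06. *Top2a* measured 304, 263, 324 and 194 CPM in wildtype, 250.3, 316, 347 and 191 CPM in heterozygous and 30.0, 13.3, 30.4 and 64.4 CPM in null libraries. Again only the null libraries stood apart, with a log2 fold-change of −3.18 ± 0.21 (SE), FDR = 2.49e-06. For *Aurkb*, the kinase of the passenger complex that corrects faulty attachments, the levels were 44.4, 40.7, 51.3 and 30.8 CPM in wildtype, 40.3, 55.0, 45.7 and 28.8 CPM in heterozygous and 5.71, 2.97, 3.01 and 9.62 CPM in null NSPCs. It had the largest fall of the 50, at −3.50 ± 0.25 (SE), FDR = 2.49e-06. The chromosome genes as a whole, *Cdca3* counted among them and 8 of 8 lower, had a median log2 fold-change of −3.16.

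Among the genes of mitotic entry, *Cdk1* measured 83.7, 72.3, 90.0 and 52.1 CPM in wildtype, 71.7, 100.4, 85.0 and 56.9 CPM in heterozygous and 17.2, 7.27, 15.4 and 25.8 CPM in null libraries. Its highest null library lay below its lowest wildtype library, and its log2 fold-change was −2.30 ± 0.19 (SE), FDR = 3.84e-06. *Ccnb1*, the cyclin B1 partner of CDK1, measured 46.3, 38.3, 48.7 and 27.9 CPM in wildtype, 32.1, 55.6, 48.3 and 39.5 CPM in heterozygous and 6.95, 2.18, 5.12 and 8.72 CPM in null libraries, a log2 fold-change of −2.95 ± 0.22 (SE), FDR = 2.49e-06 with no overlap between null and wildtype. *Foxm1* drives transcription of many of the other genes in G2. It measured 72.4, 63.5, 75.0 and 44.3 CPM in wildtype, 62.0, 85.1, 79.9 and 50.6 CPM in heterozygous and 17.3, 10.3, 15.8 and 24.02 CPM in null libraries, and its fall was among the smaller ones of this role (−2.03 ± 0.17 (SE), FDR = 4.23e-06). *Plk1*, the polo-like kinase that acts from mitotic entry to cytokinesis, measured 60.6, 50.7, 66.5 and 33.5 CPM in wildtype, 52.4, 71.4, 64.9 and 41.7 CPM in heterozygous and 6.61, 2.81, 6.57 and 15.2 CPM in null libraries. Its null and wildtype ranges were separate as well (−3.02 ± 0.24 (SE), FDR = 3.13e-06). Of the 12 genes of entry, 11 fell, with a median over all 12 of −2.79.

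At the kinetochore, where chromosomes attach to the spindle, *Bub1b*, which encodes the checkpoint protein BUBR1, measured 66.7, 59.1, 73.7 and 47.0 CPM in wildtype, 55.1, 75.3, 75.1 and 44.1 CPM in heterozygous and 6.33, 3.66, 8.74 and 14.6 CPM in null libraries. *Cenpf*, a large coiled-coil protein of the outer kinetochore, measured 119, 96.3, 118 and 70.2 CPM in wildtype, 102, 127, 155 and 92.7 CPM in heterozygous and 10.7, 6.74, 9.52 and 27.3 CPM in null libraries. In both genes the null libraries stood below all others. Their log2 fold-changes were −2.93 ± 0.20 (SE), FDR = 2.49e-06 for *Bub1b* and −3.33 ± 0.23 (SE), FDR = 2.49e-06 for *Cenpf*. All 10 genes of the kinetochore and checkpoint fell, with a median of −2.93.

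The spindle motor gene *Kif11* measured 96.9, 75.4, 102 and 59.9 CPM in wildtype, 72.4, 100.4, 115 and 68.2 CPM in heterozygous and 9.77, 7.86, 9.10 and 23.9 CPM in null libraries (−3.14 ± 0.22 (SE), FDR = 2.49e-06). *Prc1* measured 104, 96.0, 119.9 and 68.3 CPM in wildtype, 98.9, 124, 128 and 78.4 CPM in heterozygous and 17.1, 7.75, 17.1 and 29.9 CPM in null libraries (−2.54 ± 0.20 (SE), FDR = 2.78e-06). *Cdc20*, an activator of the anaphase-promoting complex, measured 70.8, 56.5, 65.5 and 46.6 CPM in wildtype, 56.7, 84.1, 69.9 and 53.0 CPM in heterozygous and 15.8, 4.35, 9.82 and 20.1 CPM in null libraries (−2.51 ± 0.21 (SE), FDR = 4.1e-06). For each of these 3 genes the highest null library was below the lowest wildtype library. By role, 8 of 9 spindle genes fell (median −2.74), as did 8 of 8 genes of the central spindle and cytokinesis (median −2.46) and 3 of 3 genes of anaphase and exit (median −3.08).

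**Figure D3:**
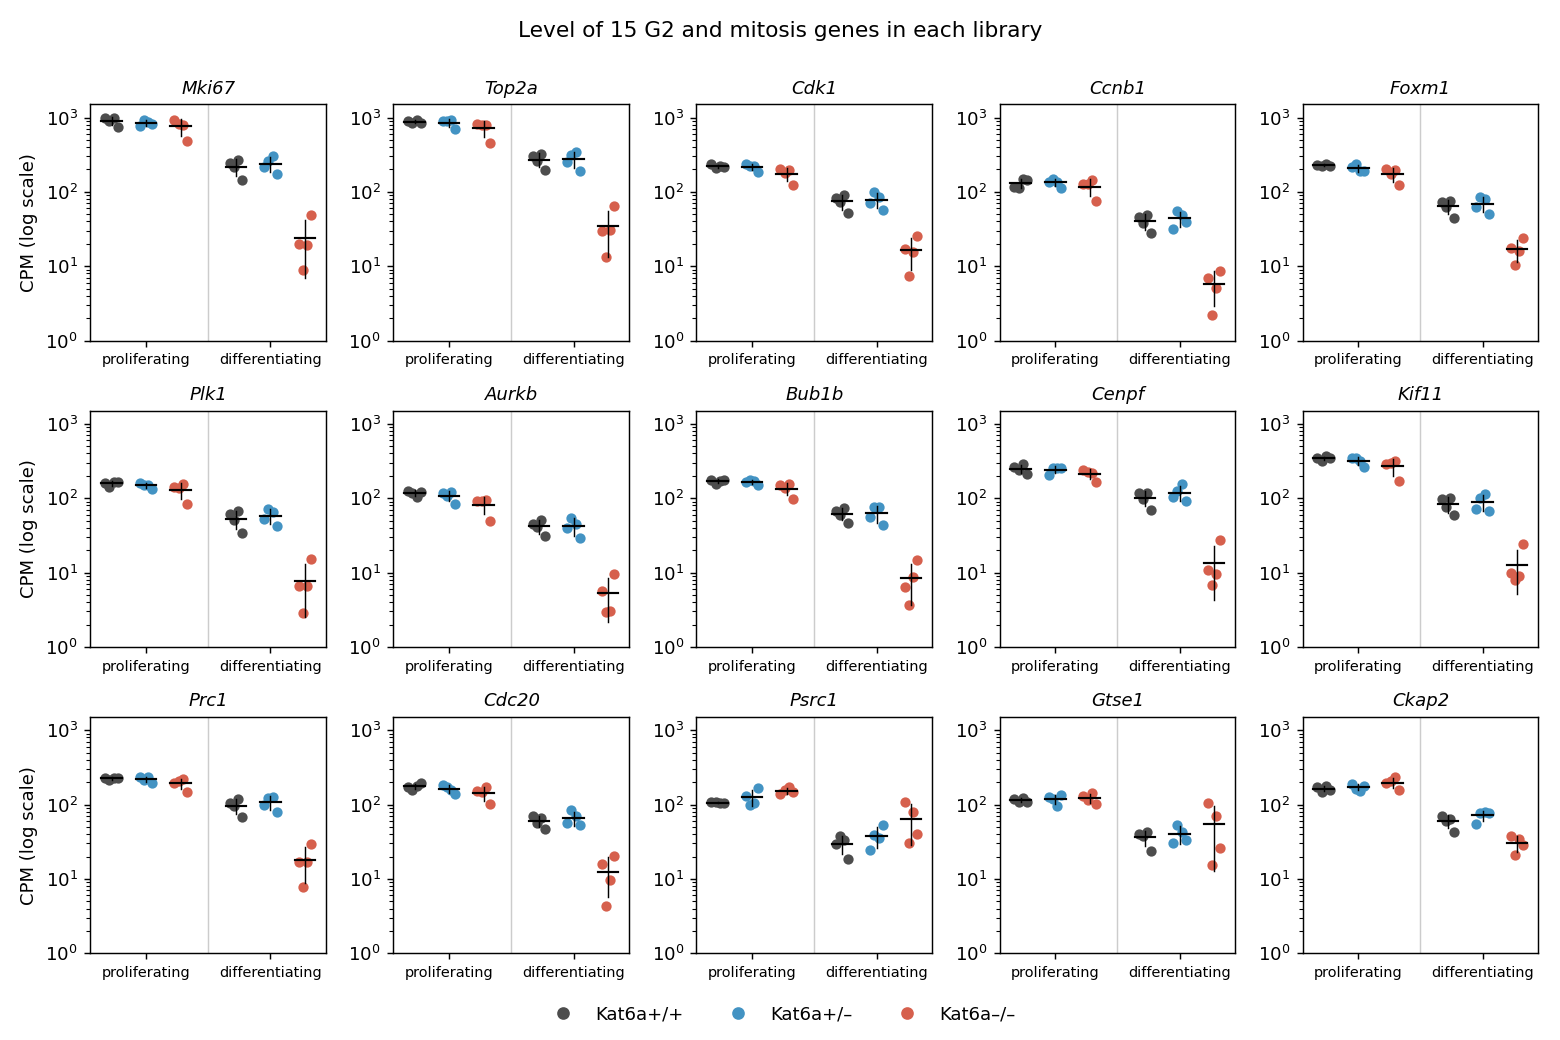
CPM on a log axis of the 12 genes that stand for the 6 roles and of *Psrc1*, *Gtse1* and *Ckap2*, by genotype (colour) and condition, with 1 point per library, a horizontal bar at the group mean and a vertical line of ± 1 SD (n = 4). In differentiating NSPCs the 4 null libraries lie below the wildtype libraries for the 12 genes and *Ckap2* but not for *Psrc1* and *Gtse1*, and in proliferating NSPCs the genotypes lie close together.

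Besides *Aurkb* (−3.50), *Mki67* (−3.50) and *Cdca3* (−3.46), which encodes a trigger of mitotic entry, had the largest falls. The smallest were those of *Anln* (−1.13), the actin-binding anillin of the cleavage furrow, and *Ckap2* (−0.92), a microtubule-associated protein. *Anln* measured 46.1, 55.4, 54.9 and 26.4 CPM in wildtype and 27.4, 4.83, 21.3 and 22.3 CPM in null libraries, so that null replicate 1 was above the lowest wildtype library. The 4 null libraries were not alike. Null replicate 2 was the lowest of its group for 46 of the 50 genes and null replicate 4 the highest for 46, and their sums were 295.7 and 903.8 CPM, against 683.9 and 587.6 CPM for replicates 1 and 3. The quality weights that the fit estimated were 16.8%, 4.22%, 69% and 10% of their total for null replicates 1 to 4, so fitted log2 fold-changes draw most on replicate 3. Wildtype replicate 4 was the lowest of its group for all 50 genes, with a sum of 2017 CPM. With any 1 of the 8 null and wildtype libraries left out, between 48 and 50 genes were still called.

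Y-linked reads were present in 3 of 4 wildtype and 1 of 4 null libraries here too, and all 50 genes were called with sex as a further term. Litters differed between groups, and litters 4633 and 4746 held both genotypes under differentiating conditions. Within litter 4633 the median log2 difference of null from wildtype was −3.32, with 49 genes lower, and within litter 4746 it was −2.22, with 48 lower. Marker levels of other cells moved between the same groups. Markers of neural stem cells summed to 8150 to 11700 CPM in null and to 5880 to 7510 CPM in wildtype libraries, but 3 of the 6 fell (*Hes5*, *Sox2* and *Fabp7*, with log2 fold-changes of −4.58, −0.80 and −0.90) and 2 rose (*Nes* and *Vim*, with 1.04 and 0.61). Those of intermediate progenitors (*Eomes*, *Neurog2*, *Insm1*, *Btg2*), which are dividing cells, summed to 57.8 to 187 CPM against 140 to 323 CPM, and 3 of the 4 fell. These were *Eomes* (−4.29), *Neurog2* (−2.42) and *Insm1* (−4.44). Most of the null sum was *Btg2* (mean 109 CPM, against 99.1 CPM in wildtype), which was not called (0.25, limma FDR = 0.414). Mesenchymal and meningeal markers (*Col1a1*, *Col1a2*, *Col3a1*, *Dcn*, *Lum*, *Pdgfrb*) summed to 20.4 to 193 CPM against 11.7 to 26.3 CPM, with *Lum* at 0 in every null library. *Col1a1* had by far the largest null mean (107 CPM, against 6.2 CPM in wildtype). *Pdgfrb* and *Col1a2* had null means of 18.7 and 6 CPM, against 11.1 and 0.915 CPM. *Col3a1* and *Dcn* had means of 0.544 CPM or less in both genotypes and were not tested. Endothelial markers (*Pecam1*, *Cdh5*, *Kdr*) summed to 9.56 to 36.8 CPM against 46.4 to 72.8 CPM. Nearly all of this was *Kdr* (means of 22.1 and 63.8 CPM). *Pecam1* and *Cdh5* had means of 0.192 CPM or less in both genotypes and were not tested. Markers of the oligodendrocyte lineage summed to 642 to 1190 CPM against 1180 to 1390 CPM, and 3 of 4 tested fell while *Cspg4* rose. Sums of neuronal markers overlapped (460 to 769 against 516 to 664 CPM), but *Dcx* (−4.51) and *Tubb3* (−0.74) fell and *Stmn2* (2.44) and *Neurod1* (2.12) rose. Sums of astrocyte markers overlapped as well (1300 to 4660 against 1740 to 2490 CPM), while *Aqp4* (−1.61), *Aldh1l1* (−1.31) and *Slc1a3* (−0.27) fell and *S100b* (2.33) rose in the weighted fit. The unweighted mean of *Aqp4* went the other way, with 291 ± 385 CPM (SD) in null against 117 CPM in wildtype libraries. The part of these differences in the fall of the mitotic genes was not tested.

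*Psrc1* and *Gtse1* moved against the rest. *Psrc1*, which encodes a spindle-associated protein, measured 29.3, 37.6, 33.7 and 18.8 CPM in wildtype, 24.2, 38.8, 35.0 and 53.8 CPM in heterozygous and 109, 30.9, 79.2 and 40.8 CPM in differentiating null libraries. Null replicates 1 and 3 were the highest of the 12 libraries, and replicate 2 lay within the wildtype range. The log2 fold-change was 1.34 ± 0.26 (SE), FDR = 0.000994. *Gtse1* measured 40.1, 37.6, 42.8 and 23.85 CPM in wildtype, 30.6, 53.8, 43.3 and 33.7 CPM in heterozygous and 104, 15.2, 70.9 and 26.1 CPM in null libraries. Here too replicates 1 and 3 were the highest and replicate 2 the lowest (0.76 ± 0.30 (SE), FDR = 0.0472). Both calls rested on 2 libraries. Without null replicate 1 or 3 the log2 fold-change of *Psrc1* was 0.70 (FDR = 0.388) or 0.68 (FDR = 0.474), and that of *Gtse1* was −0.26 or −0.35. Neither passed in limma-trend without quality weights (FDR = 0.0852 for *Psrc1* and 0.775 for *Gtse1*) or under edgeR (FDR = 0.0527 and 0.405). *Ckap2*, which fell, measured 70.7, 61.0, 64.8 and 42.7 CPM in wildtype and 37.9, 20.7, 33.9 and 28.7 CPM in null libraries, and its null values had the same order of replicates. This order was not particular to these genes, since the sums of the mesenchymal list (193, 20.4, 190 and 128 CPM) and of the intermediate progenitor list (187, 57.8, 136 and 89.4 CPM) had it too. In the null libraries the most abundant genes of these lists were *Col1a1* (mean 107 CPM) and *Btg2* (mean 109 CPM). The sums therefore stand largely for these single genes. *Cdkn1a* (953, 233, 596 and 239 CPM), *Mdm2* (201, 75.8, 148 and 89.2 CPM), *Trp53*, *Ccnd1* and *Cdkn1b* had this order in the null libraries as well. *Cdkn2a*, *Cdkn2b*, *Cdkn1c* and *Kat6a* did not. Against wildtype, *Mdm2* rose (1.03, limma FDR = 0.00016) and *Trp53* was not called (0.16, limma FDR = 0.292). What the genes with this order share was not tested.

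In proliferating NSPCs the difference between *Kat6a*–/– and *Kat6a*+/+ cells was small. The 50 genes summed to 7491 ± 1547 CPM (SD, n = 4) in null and to 9016 ± 438.7 CPM (SD, n = 4) in wildtype libraries, a 1.2-fold difference. In the limma-voom fit, 19 genes fell and 2 rose, against 13.8% of the 12276 genes tested that fell and 16.2% that rose. The median log2 fold-change of the 50 was −0.27, against −0.0045 for all genes tested, and 46 of the 50 values were negative. For 25 genes each null library was below each wildtype library, which held for 17.6% of all genes tested. The genes that fell did so by 1.24-fold to 1.39-fold.

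By role, 3 of 12 genes of mitotic entry fell (*Cdc25c*, *Foxm1* and *Aurka*), 4 of 8 chromosome genes (*Ncapd2*, *Aurkb*, *Cdca8* and *Cdca3*), 6 of 10 kinetochore and checkpoint genes (*Bub1*, *Bub1b*, *Ttk*, *Cenpa*, *Cenpe* and *Sgo1*), 3 of 9 spindle genes (*Kif2c*, *Tpx2* and *Dlgap5*), 1 of 8 genes of the central spindle and cytokinesis (*Kif4*), and 2 of 3 genes of anaphase and exit (*Ube2c* and *Espl1*). The count of 21 calls changed with single libraries. It was 8 without null replicate 4, with a median log2 fold-change of −0.14, and 5, 10, 8 and 10 without wildtype replicates 1 to 4. Null replicate 4, from litter 5063, was the lowest of its group for 49 of the 50 genes, with a sum of 5187 CPM against 8017 to 8477 CPM for the other null libraries, and heterozygous replicate 4 of the same litter was the lowest of its group for 41. Within litter 4633, null libraries were lower than the wildtype library by a median log2 difference of −0.262 (46 of 50 genes lower), and within litter 4746 by −0.070 (39 lower). Y-linked reads were present in 3 of 4 wildtype but 1 of 4 null libraries, so genotype and sex overlapped in part. The quasi-likelihood test of edgeR called 7 genes. With sex as a further term, which was added after the data were examined, 1 gene was called, *Psrc1*, with a median log2 fold-change over the 50 genes of −0.23. For these alternatives the share of all genes called was not recorded, so a general loss of calls cannot be told apart from one in these genes.

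Proliferating null libraries held 7826660 to 9775640 counts and wildtype ones 7854556 to 40838203. Markers of neural stem cells summed to 5090 to 7110 CPM in null and to 7060 to 7950 CPM in wildtype libraries, and 2 fell (*Nes* and *Vim*) while *Fabp7* rose. Astrocyte markers (*Gfap*, *Aqp4*, *Aldh1l1*, *S100b*, *Slc1a3*) summed to 1030 to 1810 CPM against 607 to 762 CPM, and 3 of 4 tested rose. Nearly all of this was *Slc1a3* (means of 1320 and 652 CPM). *Gfap* had means of 3.21 and 0.249 CPM, and *Aldh1l1* had a negative value that was not called (−1.55, limma FDR = 0.109). Of the neuronal, intermediate progenitor and oligodendrocyte lists, *Tubb3* (−1.19) and *Rbfox3* (−1.78) fell. *Map2* (0.25), *Insm1* (0.87) and *Olig1* (0.26) rose. Mesenchymal markers summed to no more than 2.34 CPM in these libraries. The part of these differences in the small fall was not tested.

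*Mki67* measured 975, 894, 998 and 747 CPM in wildtype, 764, 927, 867 and 827 CPM in heterozygous and 925, 821, 799 and 486 CPM in null proliferating libraries. Null replicate 4 was the lowest and the others overlapped with wildtype (−0.24 ± 0.15 (SE), FDR = 0.223). *Top2a* measured 897, 843, 920.5 and 845 CPM in wildtype, 899, 893, 914 and 699.6 CPM in heterozygous and 809, 795, 796 and 461 CPM in null libraries. All 4 null libraries were below the wildtype ones, by a narrow margin in 3 of them, and the FDR missed the threshold (−0.26 ± 0.13 (SE), FDR = 0.125). *Aurkb* was called, with 126, 116, 102 and 123 CPM in wildtype, 117, 107, 122 and 84.6 CPM in heterozygous and 90.8, 92.4, 93.6 and 50.1 CPM in null libraries. Its null and wildtype ranges did not overlap (−0.48 ± 0.15 (SE), FDR = 0.031).

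*Cdk1* measured 235, 208, 224 and 213 CPM in wildtype, 234, 220.2, 226 and 186 CPM in heterozygous and 203, 179, 197 and 123 CPM in null libraries. The ranges of null and wildtype were separate, but the FDR missed 0.05 (−0.29 ± 0.11 (SE), FDR = 0.0633). *Ccnb1* measured 117, 113, 147 and 144 CPM in wildtype, 136, 151, 135 and 114 CPM in heterozygous and 126, 126, 143 and 75.4 CPM in null libraries. Only null replicate 4 lay below the wildtype range (−0.15 ± 0.14 (SE), FDR = 0.439), and without it the log2 fold-change was 0.04. *Foxm1*, with 229.6, 222, 235 and 220.5 CPM in wildtype, 213, 238, 191 and 193 CPM in heterozygous and 206, 174, 196 and 122 CPM in null libraries, fell (−0.35 ± 0.12 (SE), FDR = 0.0383). *Plk1* measured 158, 143, 166 and 164 CPM in wildtype, 162, 152, 149 and 132 CPM in heterozygous and 143, 137, 158 and 84.8 CPM in null libraries. Null replicate 3 lay within the wildtype range (−0.25 ± 0.13 (SE), FDR = 0.147).

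*Bub1b* fell, from 176, 155, 173 and 176 CPM in wildtype, with 168, 175, 169 and 152 CPM in heterozygous libraries, to 150.1, 137, 153 and 97.4 CPM in null libraries (−0.32 ± 0.10 (SE), FDR = 0.0298). *Cenpf* measured 259, 243, 287 and 211 CPM in wildtype, 203, 258, 255 and 258 CPM in heterozygous and 238, 228, 216 and 167 CPM in null libraries, and the ranges of null and wildtype overlapped (−0.24 ± 0.11 (SE), FDR = 0.112). *Kif11* measured 344, 319, 365 and 343 CPM in wildtype, 348, 351, 320.2 and 262 CPM in heterozygous and 285, 299, 319.6 and 171 CPM in null libraries. Its null replicate 3 was as high as the lowest wildtype library (−0.32 ± 0.13 (SE), FDR = 0.0811). *Prc1* measured 231, 212, 231 and 228 CPM in wildtype, 234, 216, 233 and 194 CPM in heterozygous and 197, 206, 219 and 148 CPM in null libraries (−0.19 ± 0.09 (SE), FDR = 0.118). *Cdc20* measured 174, 159, 177 and 195 CPM in wildtype, 183, 171, 157 and 139 CPM in heterozygous and 151, 147, 173 and 101 CPM in null libraries (−0.26 ± 0.11 (SE), FDR = 0.0969). Of these last 3 genes none passed the threshold, and in *Prc1* and *Cdc20* as well null replicate 3 lay within the wildtype range.

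Both genes that rose in proliferating null NSPCs encode spindle proteins. *Psrc1* measured 110.0, 108, 104 and 104 CPM in wildtype, 131, 99.7, 106 and 169 CPM in heterozygous and 139.8, 159, 171 and 148 CPM in null libraries, and each null library was above each wildtype one (0.57 ± 0.12 (SE), FDR = 0.00457). This was the largest change of the 50 genes. *Ckap2* measured 172, 149, 179 and 156 CPM in wildtype, 191, 164, 153 and 177 CPM in heterozygous and 193, 206, 236 and 156 CPM in null libraries, with replicate 4 within the wildtype range (0.31 ± 0.11 (SE), FDR = 0.0405). *Gtse1* (0.14, FDR = 0.394) and *Pbk* (0.05, FDR = 0.755) also had positive values that did not pass the test. The largest changes after *Psrc1* were those of *Aurkb* and *Dlgap5* (−0.47, FDR = 0.019), and the smallest absolute values those of *Pbk*, *Nuf2* (−0.08), part of the complex that holds microtubules, and *Anln* (−0.11).

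**Figure D4:**
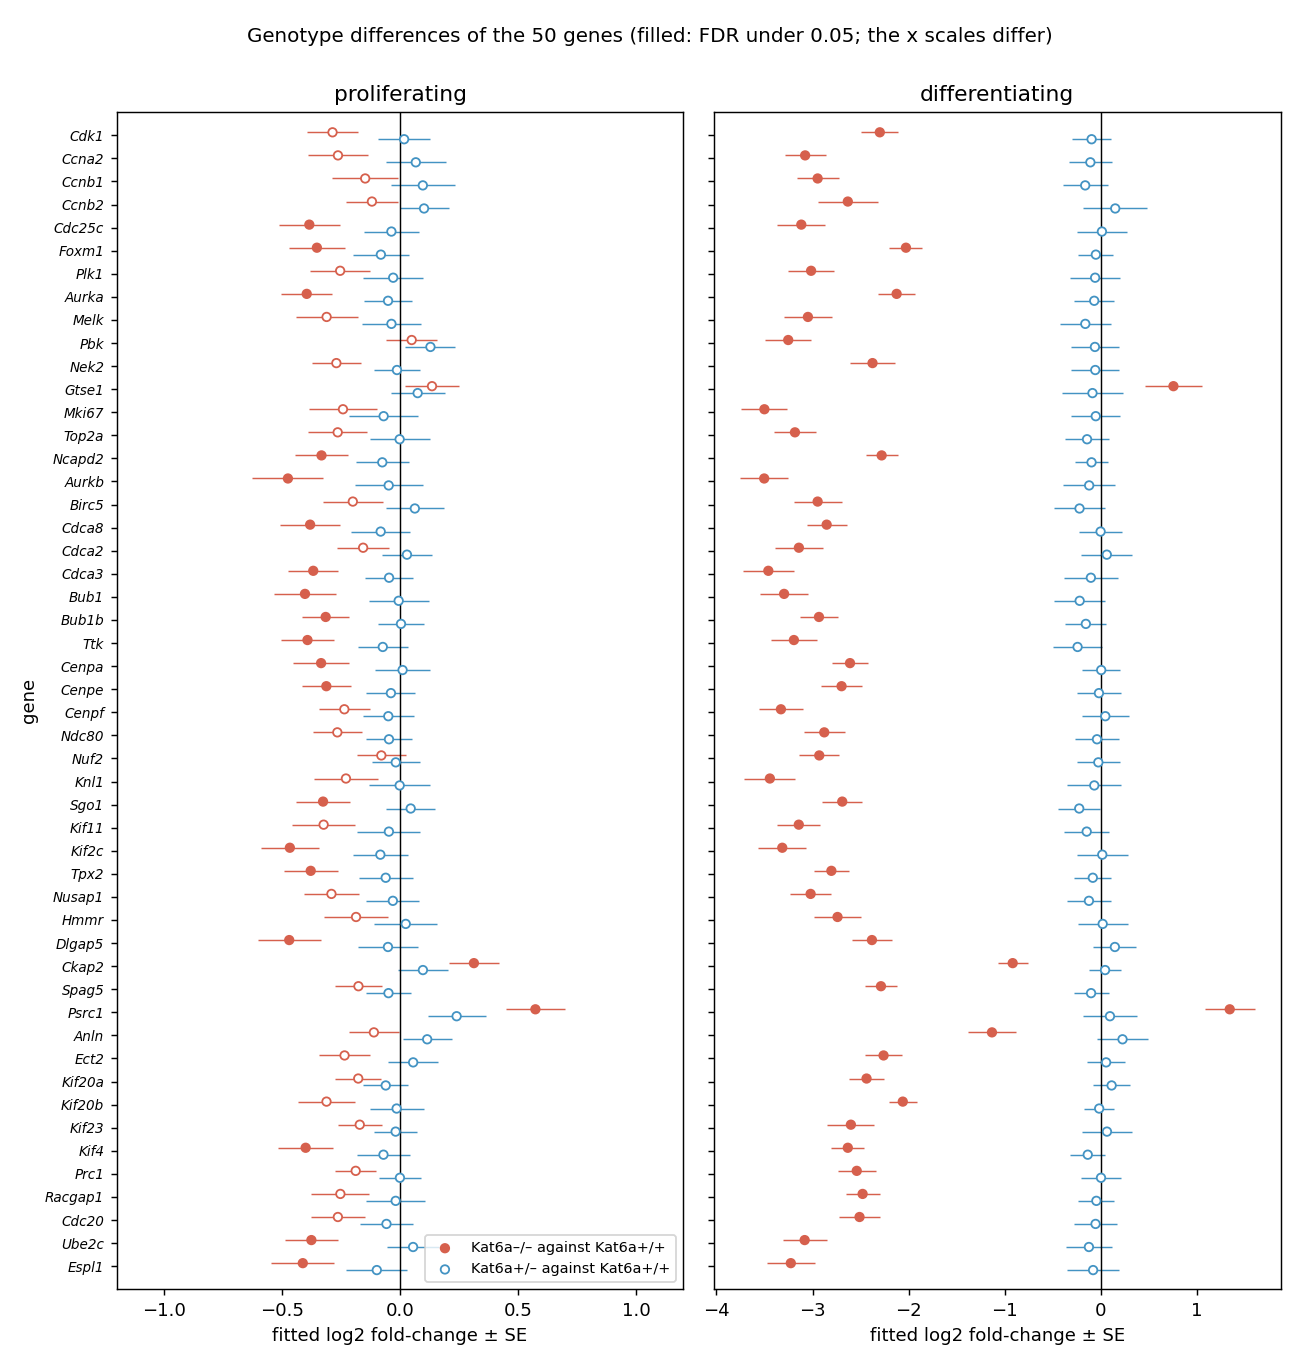
Fitted log2 fold-change against wildtype (x axis, with lines of ± 1 SE) for each of the 50 genes in null (red) and heterozygous (blue) NSPCs, in proliferating (left) and differentiating cells (right), whose x scales differ; filled points passed an FDR of 0.05. Null values have a median of −0.27 in proliferating and −2.83 in differentiating NSPCs, *Psrc1* and *Gtse1* are the 2 null values above 0 in differentiating NSPCs, and no heterozygous point is filled.

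The difference between these genotype effects was tested as an interaction in the fit of all 24 libraries. It was negative and passed the threshold for 47 of the 50 genes, against 7.58% of all 13590 genes tested, with a median of −2.44. The largest values were those of *Mki67* (−3.17 ± 0.44 (SE), FDR = 0.000179), the mitotic kinase gene *Pbk* (−3.14) and *Knl1* (−3.06). The 3 genes that did not pass were *Gtse1* (0.12, FDR = 0.902), *Psrc1* (0.46, FDR = 0.497) and *Anln* (−1.35, FDR = 0.0526). In null NSPCs all 50 genes fell from proliferating to differentiating conditions, where 33.5% of all genes tested fell, and the median log2 fold-change was −4.17, beside −1.72 in wildtype NSPCs. The sums were 12.1-fold apart in null and 3.15-fold apart in wildtype NSPCs. *Mki67* (−5.24), *Knl1* (−5.08) and *Bub1* (−4.97) fell furthest between conditions in null NSPCs, and *Ckap2* (−2.74), *Gtse1* (−1.59) and *Psrc1* (−1.44) least.

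The embryos with a library in both conditions were also compared one by one. From proliferating to differentiating conditions the median log2 difference over the 50 genes was −1.49 in wildtype embryo 8 and −1.71 in heterozygous embryo 5 of litter 4633. It was −1.54 in the wildtype embryo whose 2 libraries differed in sex. In the 3 null embryos it was −4.95 (replicate 2), −4.25 (replicate 3) and −2.45 (replicate 4). All 50 genes were lower in differentiating cells in each of the 6 embryos. The embryo of null replicate 4 had the lowest proliferating value of its group for 49 genes and the highest differentiating value for 46.

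Between *Kat6a*+/– and wildtype NSPCs no difference in these genes was detected. The 50 genes summed to 8697 ± 641 CPM (SD, n = 4) in proliferating and to 3136 ± 642.7 CPM (SD, n = 4) in differentiating heterozygous libraries. In both conditions limma called 0 of the 50 genes and 0% of all genes tested, 0 of the 50 had an unadjusted p under 0.05, and edgeR and DESeq2 called 0 of the 50 as well. Median log2 fold-changes were −0.02 in proliferating and −0.06 in differentiating NSPCs. In proliferating NSPCs the largest values were those of *Psrc1* (0.24), *Pbk* (0.13) and *Anln* (0.12), and the smallest those of *Prc1*, *Knl1* and *Top2a*. Positive values were also those of *Bub1b*, *Cenpa*, *Cdk1*, *Hmmr*, *Cdca2*, *Sgo1*, *Ube2c*, *Ect2*, *Birc5*, *Ccna2*, *Gtse1*, *Ccnb1*, *Ckap2* and *Ccnb2*. In differentiating NSPCs the largest were those of *Ttk* (−0.24), a checkpoint kinase, *Anln* (0.23) and *Sgo1* (−0.23), the protector of cohesin at centromeres, and the smallest those of *Prc1*, *Cdca8* and *Cenpa*. Besides *Anln*, those of *Prc1*, *Cenpa*, *Cdc25c*, *Kif2c*, *Hmmr*, *Ckap2*, *Cenpf*, *Ect2*, *Cdca2*, *Kif23*, *Psrc1*, *Kif20a*, *Dlgap5* and *Ccnb2* were positive there. Within litter 4633 all 50 genes were lower in the heterozygous than in the wildtype differentiating library (median −0.342), and within litter 4746 all 50 were higher (median 0.88), where the wildtype library was replicate 4.

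Against heterozygous libraries, 48 genes fell in differentiating null NSPCs, where 18.5% of all genes fell, and *Psrc1* rose (1.25, FDR = 0.00831), where 19.1% rose. *Mki67* (−3.45), *Aurkb* (−3.38) and *Knl1* (−3.38) had the largest falls, *Ckap2* the smallest (−0.96), and *Gtse1* had a value of 0.84 (FDR = 0.0748). In proliferating NSPCs 7 genes fell against heterozygous libraries, where 6.3% of all genes fell, and the largest changes were those of *Ube2c* (−0.43, FDR = 0.0184), *Aurkb* (−0.43, FDR = 0.0645) and *Dlgap5* (−0.42, FDR = 0.0456). *Gtse1* (0.06), *Nuf2* (−0.06) and *Pbk* (−0.08) changed least, and *Gtse1*, *Ckap2* (0.22) and *Psrc1* (0.33) had positive values. That count of 7 was 0, 1, 3, 4 and 2 without heterozygous replicates 1 and 2 and null replicates 1, 2 and 4, and 17 without null replicate 3. Both comparisons with null NSPCs share the null libraries.

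Other genes of the cycle were listed by role, and their counts stand beside 27.7% of all genes tested that fell and 26.7% that rose in differentiating, and 13.8% and 16.2% in proliferating, null NSPCs. Of 59 further mitosis genes tested, 57 fell and 1 rose in differentiating null against wildtype NSPCs (median −2.07), and 20 fell in proliferating ones (median −0.26). The nuclear lamin gene *Lmnb1* and the condensin gene *Smc4* are the most abundant of them, with log2 fold-changes of −2.07 and −1.16 in differentiating NSPCs, and the 1 that rose was *Pttg1* (0.51), which encodes securin, the inhibitor of separase. Of 42 genes of DNA replication, which acts in S phase, 41 fell in differentiating (median −1.56) and 18 in proliferating null NSPCs (median −0.31), and *Uhrf1*, which maintains DNA methylation at the fork, was among both (−2.78 and −0.55). The helicase gene *Mcm6* had −1.01 (FDR = 0.000241) and −0.33 (FDR = 0.0976). The most abundant of this list, *Rrm1* (−1.33 and −0.22) and *Rrm2* (−3.01 and −0.34), passed in differentiating NSPCs only. Of 16 genes of the anaphase-promoting complex and its partners, whose subunits are not confined to cycling cells, 9 fell and 1 rose in differentiating NSPCs (median −0.20). In proliferating ones 4 fell (median 0.00), beside 13.8% of all genes tested. The large scaffold gene *Anapc1* had −0.26 and the subunit gene *Cdc27* had −0.22 in differentiating NSPCs. There *Anapc5* had −0.18, and *Anapc2* was not called (−0.06, limma FDR = 0.561). Of 24 transcription regulators of the cycle, 20 fell and 1 rose in differentiating (median −0.45) and 7 fell and 1 rose in proliferating NSPCs (median −0.19). *Mybl2*, the B-Myb that works with MuvB on late genes, had −2.64 and −0.55, *E2f1* had −1.33 and −0.47, *E2f8*, a repressor of the family, had −3.23 and −0.30, and the retinoblastoma gene *Rb1* had 0.29 and 0.16, in differentiating and in proliferating NSPCs. The most abundant regulators besides *Rb1* changed less. In the same order of conditions, *Rbbp4* had −0.31 and −0.09, *Tfdp1* had −0.74 and −0.09, and *Myc*, which passed in neither, had 0.38 and −0.40.

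CDK inhibitors, D cyclins and their kinases set whether a cell stays in the cycle. Of 13 tested, 6 fell and 5 rose in differentiating null NSPCs, where 27.7% and 26.7% of all genes did, and 3 fell and 3 rose in proliferating ones, where 13.8% and 16.2% did, so these counts alone do not set the list apart. *Cdkn2a*, which encodes the inhibitor p16 and the p53 activator ARF, measured 13.9, 12.1, 8.35 and 13.7 CPM in wildtype and 45.4, 57.2, 54.5 and 50 CPM in null proliferating libraries. In differentiating libraries it measured 9.08, 21.5, 7.38 and 19.4 CPM in wildtype and 229, 177, 179 and 99.5 CPM in null NSPCs. It rose in both conditions (2.23 and 4.10), with no overlap between the genotypes. Its neighbour *Cdkn2b*, for p15, had 1.44 and 2.13. *Cdkn1a*, for p21, had 0.33 (FDR = 0.151) in proliferating and 2.48 (FDR = 8.02e-05) in differentiating NSPCs. *Cdkn1b*, for p27, fell in both (−0.85 and −0.80), as did *Cdkn1c*, for p57 (−1.32 and −3.21). The cyclin gene *Ccnd1* measured 24.5, 51.4, 18.4 and 17.8 CPM in wildtype and 499, 20.5, 262 and 77.7 CPM in null differentiating libraries (3.34). Its lowest null library was replicate 2, as for 46 of the 50 genes. Its highest was replicate 1, whereas for 46 of the 50 it was replicate 4. The order of null replicates in *Ccnd1* was that of *Psrc1*, *Gtse1* and *Ckap2*. *Ccnd2* rose in proliferating NSPCs (0.54) and *Ccnd3* in differentiating ones (0.43). The kinase genes *Cdk4* (−1.21) and *Cdk2* (−0.91) and the inhibitor gene *Cdkn2c* (−1.28) fell in differentiating NSPCs, and *Cdkn2d* fell in both (−0.39 and −0.64). *Cdk6* had 0.08 and −0.38 and passed in neither.

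**Figure D5:**
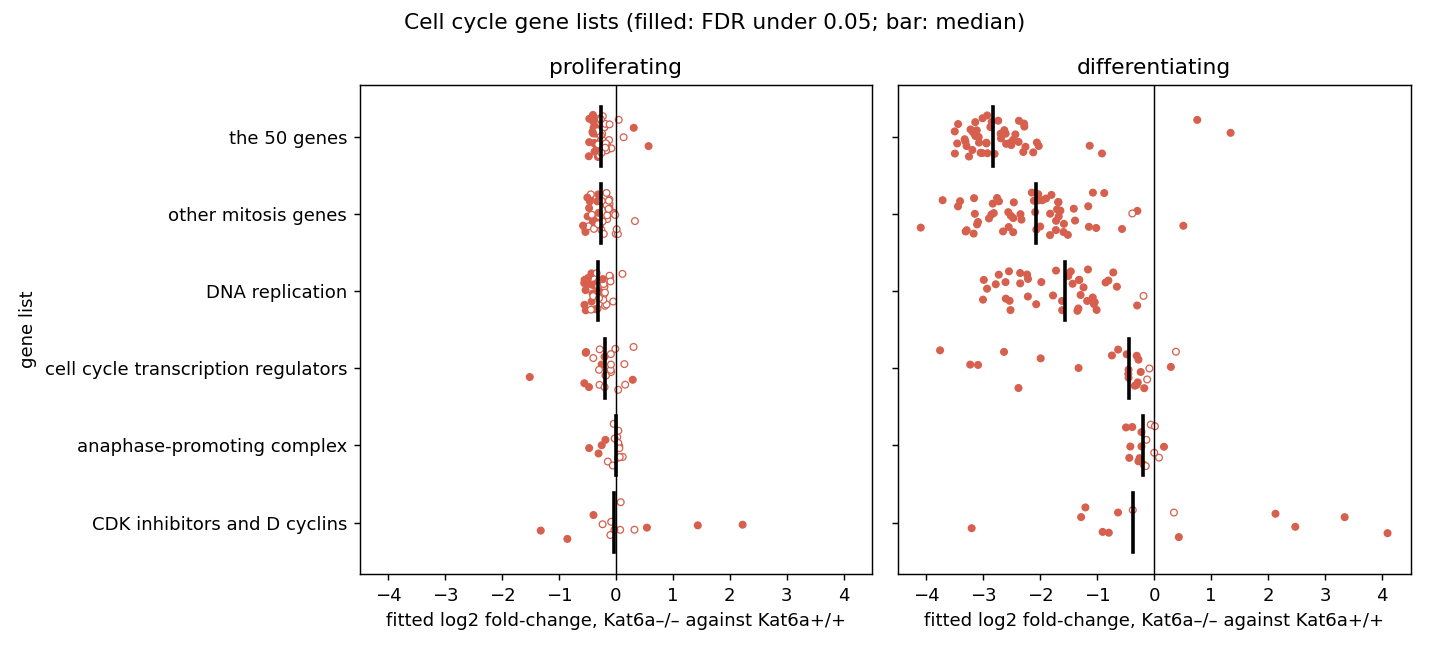
Fitted log2 fold-change of null against wildtype (x axis) of each gene of the 50, of the other mitosis genes and of 4 further lists of cycle genes, in proliferating (left) and differentiating NSPCs (right), with filled points for an FDR under 0.05 and a bar at each list's median. In differentiating NSPCs the medians are −2.83 for the 50 genes, −2.07 for the other mitosis genes, −1.56 for DNA replication and −0.20 for the anaphase-promoting complex.

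Fold-changes were set beside the promoter matches as a description. In differentiating NSPCs the median log2 fold-change of null against wildtype was −2.69 for the 33 genes with a CHR match and −2.94 for the 8 without, and in proliferating NSPCs it was −0.27 and −0.23. For CCAAT the medians were −2.66 in the 32 genes with a match and −2.95 in the 9 without under differentiating, and −0.27 in both under proliferating conditions. *Ccnb1*, with no CHR match in its window, fell (−2.95) like *Ccnb2*, which has 2 (−2.63). Of the further mitosis genes 68.1% held a CHR match, beside 18.2% of the genes of DNA replication and 20.0% of those of the anaphase-promoting complex.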

How the data were processed

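RNA-seq libraries of polyadenylated RNA from 24 mouse NSPC cultures were analysed. Per the labels and the study's methods, the authors aligned the reads to mm39 with Rsubread and deposited raw counts per gene from featureCounts with RefSeq annotation, with no normalization; the strand setting of the counting is not given in the sources used here, so genes that overlap on opposite strands cannot be told apart. Library totals ranged from 7826660 to 40838203 counts.

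Groups were taken from the labels. Protein-coding genes that passed filterByExpr were kept, without *Xist* and Y-linked genes, which left 12276 genes in proliferating, 13339 in differentiating and 13590 in all libraries. Totals were scaled by TMM. After the study's methods, limma-voom was used for proliferating libraries, with a random effect of litter (correlation within litters 0.287), and limma-trend for differentiating libraries, on log2 CPM (prior count 2) with arrayWeights. Both used robust moderation. Contrasts between conditions and the interaction came from a joint limma-voom fit, again with a random litter effect (correlation 0.00365). Benjamini-Hochberg adjustment ran over all genes tested, and an FDR under 0.05 was taken as a call. Printed CPM are unweighted, so fitted log2 fold-changes in differentiating NSPCs can differ from ratios of mean CPM. Scripts were tested on simulated data. R 4.3.3, limma 3.58.1, edgeR 4.0.16, DESeq2 1.42.0 and Python 3.11.15 were used.

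The members and lists were chosen with earlier results of these data known. Values in each library were given for 12 genes fixed by role; in each comparison the 3 largest and 3 smallest changes and the members of opposite sign were named as well. From each other list several of the most abundant genes were named, with others that were taken to define it. Each library is a separate embryo culture per the labels, within shared litters, and the 2 libraries of an embryo that gave both conditions are not independent. Alternatives were another normalization (DESeq2's size factors, library totals), no filter on low counts, edgeR's quasi-likelihood and DESeq2's Wald tests, other treatments of litter, replicate number, embryo, sex and library weights, and leaving out each library.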

Additional observations from a re-analysis of the deposited data

Results flagged for a closer look

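Among 96 combinations of group and measure, 9 held a library that lay far from the other 3 (the gap to its neighbour took up most of the group's range), and chance flags about 1 in 20 groups. Values are log2(CPM + 0.5). Proliferating null replicate 4 was low in the mean over the 50 genes (6.39), *Top2a* (8.85) and *Aurkb* (5.66). Proliferating heterozygous replicate 4, of the same litter 5063, was low in the mean over the 50 genes (6.96) and *Top2a* (9.45). *Bub1b* (7.28) and *Prc1* (7.73) were low in proliferating wildtype replicate 2, *Cenpf* (7.67) in proliferating heterozygous replicate 1 and *Ckap2* (5.80) in differentiating heterozygous replicate 1.

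The effect of the null genotype differed between conditions by the test of the interaction for 13 of the 15 genes whose values in each library were described. The differences, differentiating minus proliferating on the log2 scale, were −3.17 for *Mki67*, −2.87 for *Top2a*, −2.59 for *Aurkb*, −1.98 for *Cdk1*, −2.82 for *Ccnb1*, −1.57 for *Foxm1* and −2.69 for *Plk1*. They were −2.72 for *Bub1b*, −2.87 for *Cenpf*, −2.48 for *Kif11*, −2.35 for *Prc1*, −2.19 for *Cdc20* and −1.26 for *Ckap2*.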

How the results depend on the processing

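Null against wildtype in differentiating NSPCs called 50 genes, 48 to 50 with 1 library of the groups compared left out and 47 to 50 under 11 other alternatives, against heterozygous NSPCs 49, with ranges of 46 to 50 and 44 to 50. The heterozygous comparisons stayed at 0, both contrasts between conditions at 50 and the interaction at 47 to 48. In proliferating NSPCs the 21 genes called against wildtype became 5 to 28 with 1 library left out, 7 with edgeR, 13 with litter as a fixed term, 11 with no litter block and 1 with sex as a term. The 7 called against heterozygous NSPCs became 0 to 17 with 1 library left out, 11 with library totals in place of TMM, 1 with no filter on low counts, 0 with edgeR, 1 with DESeq2, 20 with litter as a fixed term, 2 with sex as a term, 12 without litter 5063, 0 with no litter block and 4 with limma-trend and quality weights. The causes were not tested, and the share of all genes called under each alternative was not recorded. Sex, leaving out litter 5063 and exchanging the litters of proliferating wildtype replicates 1 and 2 were chosen after seeing the data, and the exchange gave 20 in place of 21 and 5 in place of 7.

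The log2 fold-change of *Ccnb1* in proliferating NSPCs turned positive without litter 5063 (0.0637), under limma-trend (0.0864) and without null replicate 4, and ran from −0.268 to 0.0407 with 1 library left out. That of *Gtse1* in differentiating NSPCs turned negative without null replicate 1 (−0.26) or 3 (−0.345), ran up to 0.928 without wildtype replicate 3, and its call was lost under edgeR (FDR = 0.405), without quality weights (FDR = 0.775) and in most other alternatives. The call of *Psrc1* there was lost under edgeR (FDR = 0.0527), without quality weights (FDR = 0.0852) and under limma-voom with the litter block (FDR = 0.102).

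With the replicate number as a block, 25 genes were called in place of 21 and 6 in place of 7 in proliferating NSPCs. The numbers did not pair the libraries, since 5 of 24 same-numbered pairs had a correlation of deviations above 0.1 (range −0.483 to 0.545).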
